A study of Mus musculus with 15 samples.

Results

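Small RNA libraries made for miRNAs also hold longer inserts, and this account describes all inserts of 27 to 75 bases in 15 mouse libraries, chosen by the length of the deposited sequence alone. They were 73119 of 627951 distinct inserts and carried 337565 of 6892924 reads, or 4.90% of all reads. The study sequenced small RNA of Her2-expressing mammary cells and of the particles they secrete, to look for miRNAs that regulate the progesterone receptor (PgR). The 5 groups had 3 libraries each. MM3MG is a normal mammary epithelial line of the BALB/c strain, and MM3MG-Her2 is that line after transduction with retroviral particles carrying Neu (pLSXN-Neu); no line with an empty vector was analysed here. TUBO is a breast cancer line from primary tumours of Balb-NeuT mice, and it was sampled as cells, as exosomes taken from its culture supernatant and as the supernatant left by that isolation. No treatment was given, and every culture was in DMEM with 10% FCS, so in the 2 secreted fractions a fragment with the same sequence in cow and mouse cannot be assigned to either. No library of unused medium was analysed here. The labels do not say whether the replicates were separate cultures, so p-values measure the spread between these libraries, which may be technical. Bands for miRNA inserts were taken from a gel, so the long inserts lie at or beyond the upper edge of the size selection.

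Inserts over the length of a miRNA can come from trimmed or cleaved stable RNAs. Transfer RNAs are cleaved in or near the anticodon loop, which gives 5′ and 3′ fragments, and 5′ fragments are known from many body fluids and culture media. Box C/D snoRNAs guide methylation of ribosomal RNA and carry a box C near the 5′ end and a box D near the 3′ end. Y RNAs are small noncoding RNAs bound by the Ro60 protein, and 5S rRNA is the small RNA of the large ribosomal subunit.

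Each insert was compared with GENCODE M21 transcripts of GRCm38 and with RefSeq gene start windows of GRCm38.p6, both of the mouse. RefSeq lists 408 nuclear tRNA genes, and the windows hold all or part of 24 of them. The 28S and 5.8S rRNAs were not in the tables used, so an insert without a match has no assigned source here. Inserts that shared their first 20 bases were summed as 1 family, which gave 50651 long families. The families were numbered by their mean level over the groups, and a level is given in rpm, reads per 1000000 reads of the library.

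Of the 12 families with the highest mean level, 10 are shown by their most frequent insert, because many of the results turn on them. Capitals mark the 4 + 4 bases of the D stem in families 1 and 7. They mark the base past the annotated 3′ end in family 2 and the base before the gene's first base in family 3. In families 5, 8 and 10 they mark the last 20 bases, which these families share. In family 12 they mark the letters TGATGA of box C and CTGA of box D, wherever these occur. The inserts shown for families 5 to 11 matched nothing in the tables used and are printed as read in the libraries.
family 1, tRNA-His: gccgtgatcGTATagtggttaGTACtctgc
family 2, 5S rRNA: cctgggaataccgggtgctgtaggctT
family 3, tRNA-His: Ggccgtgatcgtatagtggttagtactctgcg
family 5, no match: cggcggcGACTCTGGACGCGAGCCGGG
family 6, no match: cgcgacctcagatcagacgtggcgacccg
family 7, no match: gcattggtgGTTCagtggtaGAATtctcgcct
family 8, no match: cggcggcggcGACTCTGGACGCGAGCCGGG
family 10, no match: gcggcggcGACTCTGGACGCGAGCCGGG
family 11, no match: cggggctacgcctgtctgagcgtcgct
family 12, Gm23212: ctgcaTGATGAcgaacaaataCTGAct

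Further inserts that matched exactly show the snoRNA, Y RNA, tRNA and miRNA fragments described in the text. The numbers are ranks by mean level. The 3 inserts without a number (Snord43, the Rny1 5′ end and n-TVcac9) were chosen after values were seen. The Snord43 insert has 61 bases with the letters of both boxes and is labelled whole for that. Capitals mark the letters TGATGA of box C and CTGA of box D in the snoRNAs and bases 2 to 8 in the Mir182 insert. The letters were marked wherever they occur, so a CTGA in a fragment need not be the box D near the 3′ end.
family 13, Gm25855: tatctgtgaggataagtaactCTGAgg
family 19, Gm25789: ttactTGATGAtagtaaaagatCTGAtg
family 104, Snord85: ggtcgaTGATGAgagctttgttCTGAgc
Snord43, whole: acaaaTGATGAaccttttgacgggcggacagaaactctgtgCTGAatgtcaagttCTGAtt
family 34, Rny1 3′ end: ttctcactactgcacttgactagtctt
Rny1 5′ end: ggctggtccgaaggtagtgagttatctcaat
family 125, Rny3 3′ end: gctcccactgcttcacttgaccagcctt
n-TVcac9, tRNA-Val: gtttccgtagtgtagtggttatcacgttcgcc
family 31, Mir182: tTTGGCAAtggtagaactcacaccggt

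Depth ranged from 196152 to 710902 reads per library, the supernatant libraries being the shallowest, and 59230 of the long inserts (81.0%) were read once in all libraries together. Supernatant replicate 3 stood apart from the other two: over families with at least 10 reads, its counts differed from theirs by a chi-square of 26.5 and 23 per degree of freedom, against 3.99 between the other two and 1.68 to 7.88 within the other groups. Without it, the mean share of long inserts in the supernatant was 11.8% in place of 11.1%, and the share of nuclear tRNA among its long reads was 44.0% in place of 50.3%. All levels are shares of a library, so the amount of an RNA per cell or per volume of medium was not measured.

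Long inserts took the largest share of reads in the supernatant and the next largest in MM3MG-Her2. The share was 5.01%, 3.48% and 2.25% in the MM3MG libraries and 8.27%, 6.28% and 6.91% in MM3MG-Her2. It was 3.02%, 2.86% and 3.30% in the TUBO cells, 1.57%, 4.65% and 5.72% in exosomes, and 10.9%, 12.6% and 9.82% in supernatant. Every MM3MG-Her2 library lay above every MM3MG library, and every supernatant library lay above every other library, whereas exosomes overlapped TUBO cells and TUBO cells overlapped MM3MG. The mean of MM3MG-Her2 was 2.00 times that of MM3MG (difference 3.57 percentage points; exact two-sided permutation p = 0.1, adjusted p = 0.150 over 6 comparisons). Supernatant exceeded TUBO cells by 8.05 points (exact permutation p = 0.1, adjusted p = 0.150). With 3 libraries against 3, such a test cannot give a p below 0.1. The exosome and cell shares could not be told apart (exact permutation p = 0.500).

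Most long inserts were just over the lower bound. In every group at least 54.5% of long reads had 27 to 29 bases on average. The share of all reads declined at every step from 27 to 34 bases in the cells and in exosomes, for example from 1.35% at 27 bases to 0.156% at 30 bases in TUBO cells. In the supernatant it went from 3.09% at 27 bases to 1.13% at 29 bases, then stood at 2.11% at 30 bases and 1.77% at 31 bases. Among long reads, inserts of 30 to 34 bases made up 11.5% ± 3.87 (SD, n = 3) in MM3MG, 18.6% ± 1.62 in the MM3MG-Her2 line, 10.0% ± 0.396 in the TUBO cells, 24.9% ± 2.78 in exosomes and 44.6% ± 5.38 in supernatant. Each pair of groups was separate except TUBO cells and MM3MG (exact permutation p = 0.1 for the separate pairs, adjusted p = 0.120 over 6 comparisons, and p = 0.600 for TUBO cells against MM3MG). A separate set of inserts of 60 to 75 bases held 855 reads in MM3MG, 643 in the MM3MG-Her2 line, 1291 in the TUBO cells, 63 in exosomes and 29 in supernatant.

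The source of the long reads differed by group. snoRNA fragments led in MM3MG (38.6% ± 1.55 of long reads, SD, n = 3), 5S and 18S rRNA took 30% ± 0.876 in the TUBO cells, and nuclear tRNA took 50.3% ± 11.8 in supernatant. Inserts without a match made up 67.1% ± 1.66 in MM3MG-Her2 and 72.6% ± 1.84 in exosomes, against 30.2% ± 2.07 in MM3MG, 37.0% ± 0.661 in the TUBO cells and 45.5% ± 10.4 in supernatant. No MM3MG-Her2 library overlapped MM3MG or TUBO cells in that share, and no exosome library overlapped TUBO cells (exact permutation p = 0.1, adjusted p = 0.120). Annotated protein-coding exons gave at most 1.61% ± 0.230 of long reads (exosomes), and other noncoding RNA gave 7.16% ± 0.663 there.

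Counts of families were compared with edgeR's quasi-likelihood test, with Benjamini-Hochberg adjustment over families of every length, and a family is said to have risen or fallen where its adjusted p was under 0.05. After a filter on low counts, 249 long families entered the fit of the 9 cell libraries and 221 that of the 9 TUBO-derived libraries. They held 64.8% and 57.5% of the long reads. A family that passed the filter only through the group where it is high had to differ, so the counts describe the families tested and not all members. In MM3MG-Her2 against MM3MG, 122 long families rose and 50 fell, where 66.7% of all families tested were called. The median log2 change was 0.62 over the long families and 0.28 over all families tested. In TUBO cells against MM3MG, 34 rose and 51 fell (46.2% of all families called, medians 0.00 and 0.20), and 35 rose and 96 fell without the third MM3MG library. TUBO cells against MM3MG-Her2 gave 35 rises and 124 falls (69.3% of all families called, medians −0.77 and −0.47). These 3 comparisons share libraries and are given side by side only. Exosomes against TUBO cells gave 64 rises and 87 falls (48.9% of all families called, medians −0.27 and 0.00). Exosomes against supernatant gave 47 rises and 94 falls (75.5% of all families called, medians −0.22 and 0.29). The counts of that comparison changed when 1 library was left out. The low-count filter was applied anew each time, so the families tested could differ as well, and the reason for the change was not tested. There were 104 rises and 89 falls without the first supernatant library, 97 and 87 without the second and 86 and 141 without the third. Without the first exosome library there were 112 rises and 123 falls. Supernatant against TUBO cells gave 108 rises and 92 falls (81.2% of all families called, medians 0.54 and 1.12). The shares of long families called were 69.1%, 34.1%, 63.9%, 68.3%, 63.8% and 90.5% in the same order, above the share over all families in the first, the fourth and the sixth comparison and below it in the others.

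The 5′ fragment of tRNA-His was the most frequent long family, and tRNA-His made up 71.2% ± 6.56 (SD, n = 3) of the supernatant reads of 30 to 34 bases. tRNA-His carries histidine to the ribosome. The family-1 insert covers the first 30 bases of n-THgtg7, chr3:96452495-96452524 on the plus strand of GRCm38. Its level was 59.9, 21.8 and 22.0 rpm in MM3MG and 1250.3, 601 and 999.7 rpm in MM3MG-Her2. It was 87.2, 70.4 and 91.4 rpm in the TUBO cells, 125, 514 and 1539 rpm in exosomes, and 29044, 42574 and 44907 rpm in supernatant. The supernatant libraries lay far above all others, exosomes lay above TUBO cells with a wide spread, and MM3MG-Her2 and MM3MG did not overlap. The family rose in supernatant against cells (log2 change 8.56 ± 0.95 SE, edgeR adjusted p = 2.3e-05), in exosomes against cells (3.29, adjusted p = 0.00523) and in MM3MG-Her2 against MM3MG (4.77 ± 0.36, adjusted p = 2.0e-10). It fell by 5.27 in exosomes against supernatant (adjusted p = 2.7e-04) and fell by 3.40 in TUBO cells against MM3MG-Her2. In TUBO cells against MM3MG it rose by 1.37 (adjusted p = 0.00439).

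Other nuclear tRNA fragments were few in these tables, in which most tRNA genes are missing. All tRNA families tested for supernatant against cells rose (24 of 24, median log2 change 7.12, of which 23 were tRNA-His), and all 24 fell in exosomes against supernatant. Many of the tRNA-His families are copies of family 1 with 1 base changed, which are not independent of it. Such copies formed 57 families and held 4.08% to 13.3% of the reads of family 1 in the 5 groups. In MM3MG-Her2 against MM3MG all 8 tRNA families tested rose (median 2.59), and in exosomes against cells 5 of 24 rose and 1 fell. Of all families tested, 81.2% were called in supernatant against cells and 75.5% in exosomes against supernatant. The shares were 66.7% in MM3MG-Her2 against MM3MG and 48.9% in exosomes against cells. Long reads of n-TVcac9, a tRNA-Val gene whose most frequent exact insert covers chr13:23446183-23446214, stood in the same order in the secreted fractions and cells: they averaged 911 rpm ± 205 (SD, n = 3) in supernatant, 56.7 ± 26.9 in exosomes and 17.7 ± 3.04 in the TUBO cells. The supernatant values of 705 to 1116 rpm did not overlap those of the other groups.

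Mature tRNA-His bears an extra G before the first encoded base, added after transcription. The insert of family 3 starts with this G, which is not the base of the genome there (1 mismatch). Its level was 141, 54.4 and 24.2 rpm in MM3MG, 417, 353 and 308 rpm in the MM3MG-Her2 line, and 39.8, 26.6 and 47.8 rpm in the TUBO cells. It was 101, 287 and 756 rpm in exosomes and 7442, 10757 and 12030.0 rpm in supernatant, which again lay far above the rest. The family rose in MM3MG-Her2 against MM3MG (log2 change 2.26 ± 0.42 SE, adjusted p = 1.7e-04) and in supernatant against cells (7.73 ± 0.69, adjusted p = 3.1e-07). Its change in TUBO cells against MM3MG was −0.84 (adjusted p = 0.151, libraries overlapping). Among reads that start at the first encoded base or at the added G, those with the G were 63.6% ± 9.77 (SD, n = 3) in MM3MG, 26.1% ± 7.37 in the MM3MG-Her2 line, 28.9% ± 3.85 in the TUBO cells, 36.5% ± 6.83 in exosomes and 19.4% ± 0.465 in supernatant. The MM3MG libraries (52.4% to 70.2%) lay above all others, and the supernatant libraries (19.1% to 19.9%) lay below all others. The MM3MG values rest on few reads. There were 58, 33 and 11 with the G, against 27, 14 and 10 that start at the first encoded base. The 3′ ends differed as well: of the supernatant fragments, 26.7% ended at base 27 of the gene, 28.8% at base 30 and 29% at base 31. In exosomes 50.6% ended at base 30, and in MM3MG-Her2 the most frequent end was base 29 (33.4%). Inserts under 27 bases are outside the class, so the end at base 27 lies at its lower bound. The reads were pooled over the libraries of a group, and exosome replicate 3 gave 1326 of the 1932 exosome reads of tRNA-His.

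Family 7 has the letters of a tRNA D arm without a match to a tRNA gene in the tables. The rule asked for T at base 8, a stem of 4 + 4 paired bases from base 10 and a loop of 7 to 10 bases holding the letters of the D loop. It held for 80.2% of the reads of nuclear tRNA and for 1.05% of the reads of other matched sources. Of those 46280 tRNA reads 44814 were from n-THgtg7, so the rule was checked mainly on tRNA-His. By distinct inserts of nuclear tRNA it held for 323 of 1156 (27.9%), and the n-TVcac9 insert shown above did not meet it. For reads matched only to gene start windows or to the opposite strand of a transcript it held for 39.1%. Unmatched inserts with this shape made up 2.00% of long reads in MM3MG, 1.42% in the MM3MG-Her2 line, 2.07% in the TUBO cells, 8.25% ± 0.627 in exosomes and 8.18% ± 1.14 in supernatant. Of the 26 such families tested in the TUBO-derived libraries, 25 rose in supernatant against cells (median log2 change 4.0), and 9 rose and 4 fell in exosomes against cells (median 1.69). In exosomes against supernatant 2 rose and 22 fell (median −3.95). Among all families tested, 81.2%, 48.9% and 75.5% were called in these comparisons, in the same order.

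Family 7 was frequent in both secreted fractions. It was at 551, 382 and 128 rpm in MM3MG, 263, 204 and 202 rpm in MM3MG-Her2 and 154, 181 and 187 rpm in the TUBO cells. In exosomes it was at 959, 2753 and 3365 rpm and in supernatant at 1544, 2207 and 1568 rpm. Both secreted fractions lay above all cell libraries and overlapped each other. It rose in exosomes against cells (log2 change 3.94 ± 0.42 SE, adjusted p = 1.0e-07) and in supernatant against cells (3.04 ± 0.40, adjusted p = 8.7e-07). It also rose in exosomes against supernatant (0.90, adjusted p = 0.0334), where the libraries overlapped. Copies of family 7 that lack 1 base were frequent too. They held 30.4% to 48.9% of the reads of the parent family over the 5 groups, mostly with a base of positions 6 to 7 missing. For tRNA-His they held 4.88% to 6.12%, and for 5S rRNA 0.0197% to 0.0458% in the cells.

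The 3′ end of 5S rRNA was the most frequent long family in MM3MG and in the TUBO cells and was low in the secreted fractions. In MM3MG-Her2 it was below family 5 in every library. Family 6 exceeded it there by mean (4017 against 3931 rpm), but not in replicates 2 and 3. The insert of family 2 ends 1 base past the annotated end and matched 64 annotated 5S genes equally, among them n-R5s195 at chr3:39635964-39635989 on the minus strand, so its gene of origin cannot be named. It was at 6744, 3838 and 2843 rpm in MM3MG, 4137, 4021 and 3635 rpm in MM3MG-Her2 and 5871, 5175 and 6144 rpm in the TUBO cells. In exosomes it was at 41.1, 142 and 187 rpm and in supernatant at 52.6, 76.5 and 29.2 rpm. All cell libraries lay above all libraries of the secreted fractions. The family fell in exosomes against cells by 5.36 on the log2 scale (adjusted p = 1.6e-08) and in supernatant against cells by 7.09 (adjusted p = 8.0e-10). In MM3MG-Her2 against MM3MG its change was −0.25 (adjusted p = 0.358) and in TUBO cells against MM3MG 0.41 (adjusted p = 0.150). It rose in TUBO cells against MM3MG-Her2 (0.66, adjusted p = 0.0152).

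The ends of the 5S reads differed between cells and the secreted fractions. In the cell groups 58.7% to 68.3% of 5S reads ended 1 base past the annotated end, 28% to 37.4% ended 2 bases past it, and 1.33% to 5.17% ended before the last base. In exosomes 47.5% ± 5.77 (SD, n = 3) ended before the last base, and in supernatant 34.8% ± 4.27. Because 28S and 5.8S rRNA were not in the tables used, the share of all ribosomal RNA was not measured. Any reads of these would be among the inserts without a match. The share of matched ribosomal RNA among long reads was 22.0% ± 3.91 for MM3MG, 14.4% ± 0.627 for MM3MG-Her2, 30% for TUBO cells, 4.86% ± 0.624 for exosomes and 0.583% ± 0.0876 for supernatant. This order rests on the bases allowed past annotated ends. With none allowed, the share was 4.03% in MM3MG and 6.04% in the MM3MG-Her2 line, which turns the direction of that comparison, and 3.98% in the TUBO cells.

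Fragments of 18S rRNA, the RNA of the small ribosomal subunit, were highest in MM3MG-Her2. They averaged 3809 rpm ± 652 (SD, n = 3) in MM3MG-Her2, 1288 ± 976 in MM3MG, 906 ± 147 in the TUBO cells, 1085 ± 583 in exosomes and 378 ± 100 in supernatant. The MM3MG-Her2 libraries (4435, 3134 and 3858 rpm) lay above those of MM3MG (2397, 905 and 562 rpm) and above all others.

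MM3MG-Her2 held a set of GC-rich inserts that were near absent elsewhere. They share a 3′ end, shown in capitals in families 5, 8 and 10, matched nothing in the tables used and have a GC content of 81.5% to 83.3%. Family 5 was at 6368, 4986 and 6259 rpm in MM3MG-Her2 and at 7.18, 0 and 2.20 rpm in MM3MG. It was at 0, 7.61 and 8.44 rpm in the TUBO cells, and it averaged 4.49 rpm in exosomes and 10.5 rpm in supernatant. The 3 MM3MG-Her2 libraries lay close together and far above all 12 others. The family rose in MM3MG-Her2 against MM3MG (log2 change 10.91 ± 0.51 SE, adjusted p = 1.0e-11), where the MM3MG level rests on 3, 0 and 1 reads. Without the first MM3MG library the log2 change was 11.78, and without the second 9.78. In TUBO cells, a line from Neu tumours, its change against MM3MG was 0.97 (adjusted p = 0.410).

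All inserts that hold the shared 20 bases were then summed. In MM3MG-Her2 there were 313 such inserts with 20027 reads, or 22.0% ± 1.79 of its long reads (SD, n = 3). Their level was 18005, 12748 and 16488 rpm in the MM3MG-Her2 line, and the group means were 11.6 rpm in MM3MG, 9.68 in the TUBO cells, 41.0 in exosomes and 55.8 in supernatant. The 5′ ends were spread, whereas 54.7% of the MM3MG-Her2 reads stopped at the shared end, and 19.3%, 18.8% and 6.23% ran 1, 2 or 3 bases further.

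Families 6 and 11, also unmatched, were present in all libraries. Family 6 was at 5042, 3804 and 3204 rpm in the MM3MG-Her2 line, 347, 259.6 and 117 rpm in MM3MG and 91.8, 108 and 121 rpm in the TUBO cells. It rose in MM3MG-Her2 against MM3MG (log2 change 4.0 ± 0.32 SE, adjusted p = 5.1e-09), with no overlap, and rose in exosomes against cells (2.02, adjusted p = 0.00684). Family 11 differed little across the cells, at means of 637 rpm in MM3MG, 986 in MM3MG-Her2 and 912 in the TUBO cells (rises over MM3MG of 0.56 and 0.57, adjusted p = 0.0251 and 0.0331), and was lower outside them, at 52.6 rpm ± 53.9 in exosomes and 408 ± 284 in supernatant. It fell in exosomes against cells by 3.94 (adjusted p = 1.8e-04) and in supernatant against cells by 1.46 (adjusted p = 0.0437). Over all unmatched families tested, 83 of 130 rose and 8 fell in MM3MG-Her2 against MM3MG (median log2 change 2.71), and 20 rose and 19 fell in TUBO cells against MM3MG (median 0.00).

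Exosomes held a set of their own, whose inserts also shared a 3′ end and matched nothing. Their sum was 418, 3367 and 5706 rpm in the exosome libraries and 0 rpm in all MM3MG and TUBO cell libraries, and the means were 0.720 rpm in MM3MG-Her2 and 12.4 rpm in supernatant. The first exosome library was the lowest, and without it the exosome mean was 4536 rpm in place of 3164. Without the third exosome library it was 1892 rpm. Family 27 of this set was at 226, 1492 and 2719 rpm in exosomes, 13.2, 5.10 and 3.66 rpm in supernatant and 0 rpm in all TUBO cell libraries. It rose in exosomes against supernatant (log2 change 8.08 ± 1.02 SE, adjusted p = 2.5e-05). Family 117, read only in exosomes (24.0, 210.1 and 373 rpm), rose against supernatant with all libraries (adjusted p = 0.00183) and missed the threshold without the third supernatant library (adjusted p = 0.0538).

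Long snoRNA fragments were most frequent in MM3MG and scarce outside cells. They took 38.6% ± 1.55 of long reads in MM3MG, 10.2% ± 1.04 in the MM3MG-Her2 line, 20.8% ± 1.15 in the TUBO cells, 0.992% ± 0.0743 in exosomes and 0.790% ± 0.439 in supernatant (SD, n = 3). Of 58 snoRNA genes with at least 50 long reads, 44 had their highest mean level in MM3MG, 8 in the MM3MG-Her2 line, 5 in the TUBO cells and 1 in supernatant. Fewer were separate: against MM3MG, 25 were lower and 3 higher without overlap in MM3MG-Her2, and 23 and 3 in TUBO cells. The floor of 50 reads was set on all libraries together, and MM3MG gave 20696 of the 43195 snoRNA reads, so genes high in MM3MG passed more easily. The share of all genes without overlap is not given here, so these counts describe the 58 genes only. The level of all snoRNA fragments ranged from 8632 to 18622 rpm over the MM3MG libraries. Of 58 snoRNA families tested in the cells, 6 rose and 33 fell in MM3MG-Her2 against MM3MG (median log2 change −1.30), and 7 rose and 29 fell in TUBO cells against MM3MG (median −1.13). In exosomes against cells 35 of 38 fell and none rose (median −4.86), and in supernatant against cells 35 fell and 1 rose (median −6.02). Among all families tested, 66.7%, 46.2%, 48.9% and 81.2% were called in these comparisons, in the same order. Of all families, 1113 rose and 676 fell in MM3MG-Her2 against MM3MG, and 685 rose and 553 fell in TUBO cells against MM3MG.

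Single snoRNAs differed in direction within the same comparison. The insert of family 19 covers 28 bases of Gm25789, chr1:161038351-161038378, and holds the letters TGATGA and CTGA. Whether this CTGA is the box D near the 3′ end of the RNA was not tested. It was at 2210.4, 1542 and 1049 rpm in MM3MG, 138, 147 and 123 rpm in MM3MG-Her2 and 228, 183 and 176 rpm in the TUBO cells. All MM3MG libraries lay above all others, and the family fell by 3.61 ± 0.27 SE in MM3MG-Her2 against MM3MG (adjusted p = 8.4e-12) and by 2.98 ± 0.25 in TUBO cells against MM3MG (adjusted p = 3.3e-10). Family 13, from Gm25855 (chr19:8724034-8724060), fell in the same comparisons by 3.02 and 2.38 (adjusted p = 9.6e-07 and 2.0e-05). It was at 3398, 2297 and 1007 rpm in MM3MG and 317, 303 and 240.4 rpm in MM3MG-Her2. Snord85 (family 104, chr4:130749675-130749702), a named box C/D snoRNA, fell by 3.23 ± 0.37 in MM3MG-Her2 against MM3MG (adjusted p = 2.4e-08).

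Family 12, from Gm23212 (chr1:161036683-161036709), went the other way. It was at 417, 465 and 414 rpm in MM3MG, 1729.6, 1824 and 1668 rpm in MM3MG-Her2 and 775, 803 and 789 rpm in the TUBO cells. The libraries of each group lay close together, and the 3 groups did not overlap. It rose in MM3MG-Her2 against MM3MG (log2 change 1.94 ± 0.19 SE, adjusted p = 2.2e-09) and in TUBO cells against MM3MG (0.92 ± 0.19, adjusted p = 2.6e-04). It was at 5.14, 4.67 and 10.0 rpm in exosomes and fell against cells by 6.66 (adjusted p = 3.6e-09). Gm23212 and Gm25789 both lie on chromosome 1, at the neighbouring positions given above, and their families moved in opposite directions in MM3MG-Her2 against MM3MG.

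The part of the snoRNA that was read also differed. Fragments from the 5′ end made up 26.2% ± 4.0 of snoRNA reads in MM3MG, 62.4% ± 0.351 in MM3MG-Her2 and 48.4% ± 1.32 in the TUBO cells (SD, n = 3), and fragments from inside the RNA made up 44.7%, 17% and 21.4%. In supernatant 74.1% ± 12.2 came from the 3′ end. Most of these were from Gm23927, a snoRNA at 675 rpm ± 522 in supernatant (172 to 1213 rpm) and at most 18.2 rpm on average in the other groups. Its reads were named after their values were seen.

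Inserts of 60 to 75 bases largely fitted the letters of both boxes of a box C/D snoRNA, with an uncalled base counted as any letter. Of 2881 such reads, 71.8% fitted the box C letters TGATGA in their first 12 bases and the box D letters CTGA in their last 9, against 3.78% at 35 to 59 bases and 3.98% at 27 to 34 bases. The shares were 76.8% for MM3MG, 72.0% for MM3MG-Her2, 71.0% for TUBO cells, 30.2% for exosomes and 44.8% for supernatant. The snoRNA genes with the most reads of 60 to 75 bases were Gm22680 (280 reads), Snord43 (214), Gm23301 (180), Snord96a (158) and Gm24299 (158). Their reads came almost all from the cells: for Gm22680 81 from MM3MG, 53 from MM3MG-Her2, 142 from TUBO cells, 4 from exosomes and 0 from supernatant. These counts rest on length alone. Long reads that came within 3 bases of both annotated ends of a snoRNA were 407 in MM3MG, 349 in MM3MG-Her2 and 701 in TUBO cells. The Snord43 insert labelled whole covers chr15:80082859-80082919. Per library the level of inserts of 60 to 75 bases averaged 559.7 rpm ± 93.5 in MM3MG, 520.4 ± 171 in MM3MG-Her2 and 705 ± 235 in the TUBO cells, which overlapped. It was 38.4 ± 35 in exosomes and 41.4 ± 13.9 in supernatant, below every cell library. Most of these reads have uncalled bases at fixed positions (74.9% of those reaching base 73 and 44.8% at base 63), which both the match with at most 1 mismatch and the box count treated as any base. On average 95.6% had one in MM3MG, 96.6% in MM3MG-Her2 and 96.6% in the TUBO cells, against 9.27%, 8.94% and 9.91% of all long reads. The box D letters were thus easier to fit at 60 to 75 bases. Box C alone, where none of these reads had an uncalled base, was found in 75.8%, against 9.72% at 35 to 59 bases and 5.01% at 27 to 34 bases.

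Y RNA fragments came from opposite ends in the 2 secreted fractions. In exosomes, fragments from the 3′ end stood at 1691 rpm ± 651 (SD, n = 3), 94.6% of all Y RNA reads, and fragments from the 5′ end at 99.3 ± 81.5. In supernatant the 5′ end stood at 757 rpm ± 236, or 97.8%, and the 3′ end at 17.5 ± 16.5. The ranges of neither end overlapped between the fractions. Cells carried mostly 3′ fragments, at 215 rpm in MM3MG, 171 in MM3MG-Her2 and 226 in the TUBO cells. Family 34, the 3′ end of Rny1 (chr6:47788071-47788097), was at 454, 1067 and 712 rpm in exosomes, 115, 93.3 and 61.9 rpm in the TUBO cells and 4.39, 10.2 and 0 rpm in supernatant. The 3 groups did not overlap. It rose in exosomes against cells (log2 change 3.23 ± 0.49 SE, adjusted p = 7.2e-06) and against supernatant (7.79 ± 0.71, adjusted p = 1.0e-08), and fell in supernatant against cells by 4.56 (adjusted p = 4.5e-06). Its changes among the cell groups were between −0.32 and 0.19, none past the threshold.

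Rny3, the second mouse Y RNA, showed the same side in exosomes. Family 125, its 3′ end (chr6:47781696-47781723), was at 53.1, 168 and 229 rpm in exosomes, 3.06, 3.81 and 2.81 rpm in the TUBO cells and 0 rpm in all supernatant libraries. It was at least 33.4-fold higher in exosomes than in supernatant, against a floor of 3 reads over that group. Of the 5 Y RNA families tested, 5 rose in exosomes against cells (48.9% of all families called), and 4 rose and 1 fell in exosomes against supernatant (75.5% of all families called). The 5′ fragment of Rny1 covers chr6:47788150-47788180. Vault RNA, another RNA of a cytoplasmic particle, had 91.9 rpm ± 59 in exosomes, 17.9 ± 5.70 in the TUBO cells and 1.70 ± 2.94 in supernatant. Its exosome libraries (24.0, 121 and 130.4 rpm, the first from 14 reads) overlapped those of the TUBO cells (24.5, 15.2 and 14.1 rpm).

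Fragments of mitochondrial tRNA took their largest share in MM3MG. They made up 1.72% ± 0.352 of long reads there, 0.270% ± 0.0133 in the MM3MG-Her2 line, 0.987% ± 0.0871 in the TUBO cells, 0.162% ± 0.0494 in exosomes and 0.0107% ± 0.0101 in supernatant. Mitochondrial rRNA was at 254, 176 and 83.8 rpm in MM3MG, 73.4, 67.3 and 73.3 rpm in the MM3MG-Her2 line and 41.1, 156 and 341 rpm in exosomes, where the spread covered all cell libraries. The leading family of mitochondrial tRNA, 73, from mt-Ts2, one of the mitochondrial serine tRNAs, was at 388, 297 and 97.0 rpm in MM3MG and 84.2, 75.7 and 106 rpm in the MM3MG-Her2 line, which overlapped, and fell by 1.63 (adjusted p = 8.2e-04). A family of the mitochondrial 16S rRNA gene mt-Rnr2 fell by 3.41 in the same comparison (adjusted p = 2.5e-05) with no overlap.

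Reads of miRNA hairpins did occur among the long inserts, 2242 in all. The leading family, 31, starts at the miR-182 guide strand of Mir182 (chr6:30165960-30165986), a miRNA of epithelia and sensory tissue, and runs past the usual end. It was at 399.9, 406 and 326 rpm in MM3MG, 119, 139 and 99.7 rpm in MM3MG-Her2 and 479, 501 and 525 rpm in the TUBO cells. It fell in MM3MG-Her2 against MM3MG by 1.72 ± 0.23 SE (adjusted p = 2.9e-07) and rose in TUBO cells against MM3MG-Her2 (2.18, adjusted p = 5.9e-09), with no overlap in either. In exosomes it was at 117, 142 and 539.7 rpm and in supernatant at 8.77, 10.2 and 14.6 rpm, and it rose in exosomes against supernatant (4.98, adjusted p = 1.3e-06).

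Smaller sources gave single families. Family 179, from Gm25813, annotated as a spliceosomal snRNA, matched 12 annotated genes equally and was at 127, 44.1 and 111 rpm in MM3MG-Her2 against 0, 0 and 2.20 rpm in MM3MG (log2 change 6.64 ± 0.71 SE, adjusted p = 7.4e-09). All long reads of Gm25813 together stood at 225, 124 and 223 rpm in MM3MG-Her2 against 26.3, 38.9 and 28.7 rpm in MM3MG. Family 234, from Rn7s1, a 7SL RNA of the signal recognition particle, was at 44.4, 43.8 and 57.7 rpm in TUBO cells against 4.79, 4.66 and 2.20 rpm in MM3MG (3.59 ± 0.48, adjusted p = 5.5e-07). All long reads of Rn7s1 stood at 88.7, 87.5 and 104 rpm and at 4.79, 20.2 and 8.82 rpm in the same groups. Family 171, from Rmrp, the RNA of the RNase MRP enzyme, fell in MM3MG-Her2 against MM3MG by 1.61 (adjusted p = 0.00151), with overlapping libraries. All long reads of Rmrp stood at 83.8, 77.7 and 28.7 rpm in MM3MG and at 28.1, 27.3 and 20.5 rpm in MM3MG-Her2, which did not overlap. TUBO cells also carried unmatched families of low GC content. Family 91 (GC 29.6%) was at 471, 213 and 196 rpm in the TUBO cells, 7.18, 3.11 and 2.20 rpm in MM3MG, and 0 in all libraries of exosomes and supernatant. It rose in TUBO cells against MM3MG (6.18 ± 0.50, adjusted p = 6.5e-10) and against MM3MG-Her2 (6.01 ± 0.51, adjusted p = 4.0e-10).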

How the data were processed

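Per the labels' protocols, TRIzol RNA was ligated to a 3′ and a 5′ adapter, reverse transcribed, amplified and taken from a gel as bands of miRNA inserts. The authors deposited counts: 1 list per library of distinct inserts with the whole number of reads of each. For adapter trimming, the tool was not given in the sources used here. No molecular identifiers are named, so reads are not independent molecules and floors of 3 reads cover counting error only.

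Inserts of 27 to 75 bases were taken from each list. They were matched on both strands with a 12-base seed and at most 1 mismatch, with uncalled bases free, and with up to 3 bases past annotated ends of small RNAs, a rule set after sequences were seen. No whole genome was used here. The reference tables lack most tRNA genes, so the rule to print only matching inserts was relaxed for the 12 families of highest mean level. Reads of inserts with the same first 20 bases, within up to 26 or 27 to 75 bases, were summed. They were fitted in edgeR 4.0.16 (R 4.3.3, TMM scaling on total reads, filterByExpr, robust quasi-likelihood test, threshold 0.05), once over the 9 cell libraries and once over the 9 TUBO-derived libraries. The scripts were tested on simulated data. Shares were compared by exact two-sided permutation tests. A log2 change above 0 means a higher level in the group named first, and SE is its standard error (n = 3 per group).

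Named families were the 12 with the highest mean level, the leading family of each source, and per comparison the 4 largest rises and falls among families past the threshold with at least 50 rpm and no overlap. Of these 54 families, those described in the text were picked after their values were seen. Families 4 and 9 are not reported here. The members, lists and rules were chosen with earlier results of these data known. Alternatives were RLE scaling, no scaling, DESeq2 1.42.0, no low-count filter, single inserts, a replicate block and leaving out each library. Same-number correlations of deviations between groups were −0.0668 to 0.0843, with 0 of 18 over 0.1, so the replicate numbers were not treated as pairs.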

Additional observations from a re-analysis of the deposited data

How the results depend on the processing

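Counts of long families called kept within 1.5 times of the reported count under RLE scaling, no scaling, DESeq2 and the replicate block, which changed a count by at most 3. Without the low-count filter the counts were 405 for MM3MG-Her2 over MM3MG, 152 for TUBO cells over MM3MG, 379 for TUBO cells over MM3MG-Her2, 498 for exosomes over cells, 426 for exosomes over supernatant and 571 for supernatant over cells, since more families were tested. With each insert on its own, exosomes against supernatant gave 217. Leaving out 1 library, with the low-count filter applied anew, gave 184 to 240, 84 to 131, 163 to 193, 160 to 214, 184 to 235 and 225 to 283 calls in the same order. The count for TUBO cells against MM3MG was 131 without MM3MG replicate 3, and that for exosomes against supernatant was 235 without exosomes replicate 1 and 227 without supernatant replicate 3 (the cause was not tested). Without supernatant replicate 1 that comparison had 104 rises and 89 falls, in place of 47 and 94. The median log2 change over all families moved with the scaling from 0.00 to −0.23 (RLE) in exosomes against cells, from 0.29 to 0.00 (RLE) in exosomes against supernatant, from −0.47 to −0.59 (RLE) in TUBO cells against MM3MG-Her2 and from 1.12 to 1.40 (no scaling) in supernatant against cells. Of 528 values of the 48 named family results under alternatives, 527 kept direction and call, family 117 without supernatant replicate 3 being the exception.

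Shares moved with the definition of an insert or a match. From 30 bases up, long inserts held 0.541%, 1.45%, 0.422%, 1.10% and 5.04% of reads in the 5 groups (in the order MM3MG, MM3MG-Her2, TUBO cells, exosomes, supernatant). Without inserts read once in a library, the long share of TUBO cells was 2.33% and the 30 to 34 base share 7.13% (exosomes 29.4%). The tRNA share was then 4.83% for MM3MG-Her2, 1.88% for TUBO cells and 4.94% in exosomes. The rRNA share was 26.2%, 15.5%, 39.3%, 5.67% and 0.302% in that order, and the unmatched share 22.6% in MM3MG, 27.4% for TUBO cells and 70.7% in exosomes. Without inserts with an uncalled base, TUBO cells had a long share of 2.84% and an rRNA share of 31.0%. With exact matches, tRNA held 0.778% in MM3MG, 3.15% for MM3MG-Her2, 1.32% for TUBO cells and 37.9% in supernatant. rRNA then held 13.3% for MM3MG-Her2, 28.5% for TUBO cells, 3.57% in exosomes and 0.448% in supernatant, and no match 38.7%, 72.0%, 44.5%, 79.7% and 59.3% in the 5 groups. With no bases past annotated ends, rRNA held 4.03%, 6.04%, 3.98%, 3.88% and 0.432%, and no match 38.6% for TUBO cells. With unmatched D-arm inserts counted as tRNA, tRNA held 3.09%, 5.65%, 3.80% and 11.5% in MM3MG, MM3MG-Her2, TUBO cells and exosomes.

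Most long inserts were read once, so inserts outside the families tested could not be compared between groups at this depth.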

Other observations

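Some families stood high in supernatant replicates 1 and 2 and far lower in replicate 3. Family 22, an unmatched insert of 27 bases, was at 2473 and 2666 rpm in those and 219 rpm in the third library, against at most 23.3 rpm in any exosome library. Family 88 was at 412, 505 and 25.6 rpm, and family 150 at 246, 163 and 21.9 rpm. The tRNA-His family 71, a copy of family 1 with 1 change, was even across the same libraries (417, 499.6 and 417 rpm). Families 22 and 71 rose in supernatant against TUBO cells (log2 changes 9.22 ± 1.25 SE and 8.79 ± 0.89, edgeR adjusted p = 3.7e-05 and 2.8e-08).

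One unmatched family, 69, stood high in a single TUBO cell library (87.2, 53.3 and 373 rpm) and was at 0 in all supernatant libraries. Family 143, a tRNA-His family, was at 73.4 rpm in the first MM3MG-Her2 library and at 2.10 and 2.93 rpm in the others.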
